A study of Zanthoxylum armatum with 24 samples.

Results

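Auxin acts through repressor proteins, and 6 genes of that pathway are described here in floral buds of *Zanthoxylum armatum* (a prickly ash grown for its spice): the Aux/IAA repressors Zardc15205(*ZaIAA11*), Zardc22092(*ZaIAA12*) and Zardc51967(*ZaIAA14*), the conjugating enzyme Zardc26158(*ZaGH3.1*), and the influx carriers Zardc55290(*ZaLAX2*) and Zardc55291(*ZaLAX3*). They were taken by gene ID from the annotation tables of the study, and all 6 were among the 38734 genes tested of 60592 listed. Male buds were sampled at 4 stages, M1 (undifferentiated), M2 (primordia initiation), M3 (primordia differentiation) and M4 (development and maturation), and female buds at the matching stages F1 to F4. All trees were 5-year-old dioecious trees of 1 trial site with no treatment, and each library pools buds of trees of the same sex. Each group had 3 libraries, except that M2 had 2, because the values given for its replicate 3 cover 183 genes, 182 of them equal to M3 replicate 1 and none of them a gene described here. This left 11 male and 12 female libraries. Per the paper, the stages followed each other in the calendar from September on, so that stage and season cannot be told apart. The names are those of the study's tables, after *Arabidopsis* genes, and the study drew these genes from its own lists of differentially expressed genes in these libraries, so that their counts below are not independent evidence of a direction.

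Aux/IAA proteins bind auxin response factors and hold their target genes silent. Auxin joins an Aux/IAA protein to a TIR1/AFB receptor, the repressor is degraded, and the response factors act. Many Aux/IAA and GH3 genes are themselves switched on by auxin. GH3 enzymes of the auxin-conjugating group link indole-3-acetic acid to amino acids and so lower the free hormone. AUX1/LAX proteins carry auxin into the cell. In *Arabidopsis*, IAA12 (BODENLOS) represses the response factor MONOPTEROS in the embryo, IAA14 (SOLITARY-ROOT) blocks lateral root initiation, LAX2 acts in vascular patterning of the cotyledon, and LAX3 in lateral root emergence.

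The files hold FPKM, fragments per gene scaled for gene length and for the mapped fragments of each library, so that levels can be set side by side between genes. Depth relative to M1 replicate 1 was 0.853 to 1.09, and 32887 to 34078 genes per library reached 1 FPKM. The study took its *ZaPI*, *ZaAP3*, *ZaSTK* and *ZaSHP1* genes from genes that differed between the labelled sexes in these libraries. Their levels are thus no independent check of the sex labels. The summed level of 11 stamen identity genes (*ZaPI* and *ZaAP3*) was 4.07 to 5.09 FPKM in M1 against 0.326 to 0.706 FPKM in F1, and 7.39 to 7.78 FPKM in M2 against 0.207 to 0.531 FPKM in F2. It was 28.9 to 40.0 FPKM in M3 against 2.91 to 3.96 FPKM in F3, and 162 to 184 FPKM in M4 against 13.2 to 15.9 FPKM in F4. The summed level of 4 ovule identity genes (*ZaSTK* and *ZaSHP1*) was 13.3 to 13.7 FPKM in M4 and 35.96 to 42.2 FPKM in F4. At stage 3 it went the other way, with 2.21 to 2.62 FPKM in M3 and 1.53 to 2.02 FPKM in F3. In the groups of stages 1 and 2 it was at most 1.11 FPKM. In whole buds, fewer cells of a type and less RNA per cell cannot be told apart.

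**Figure D1:**
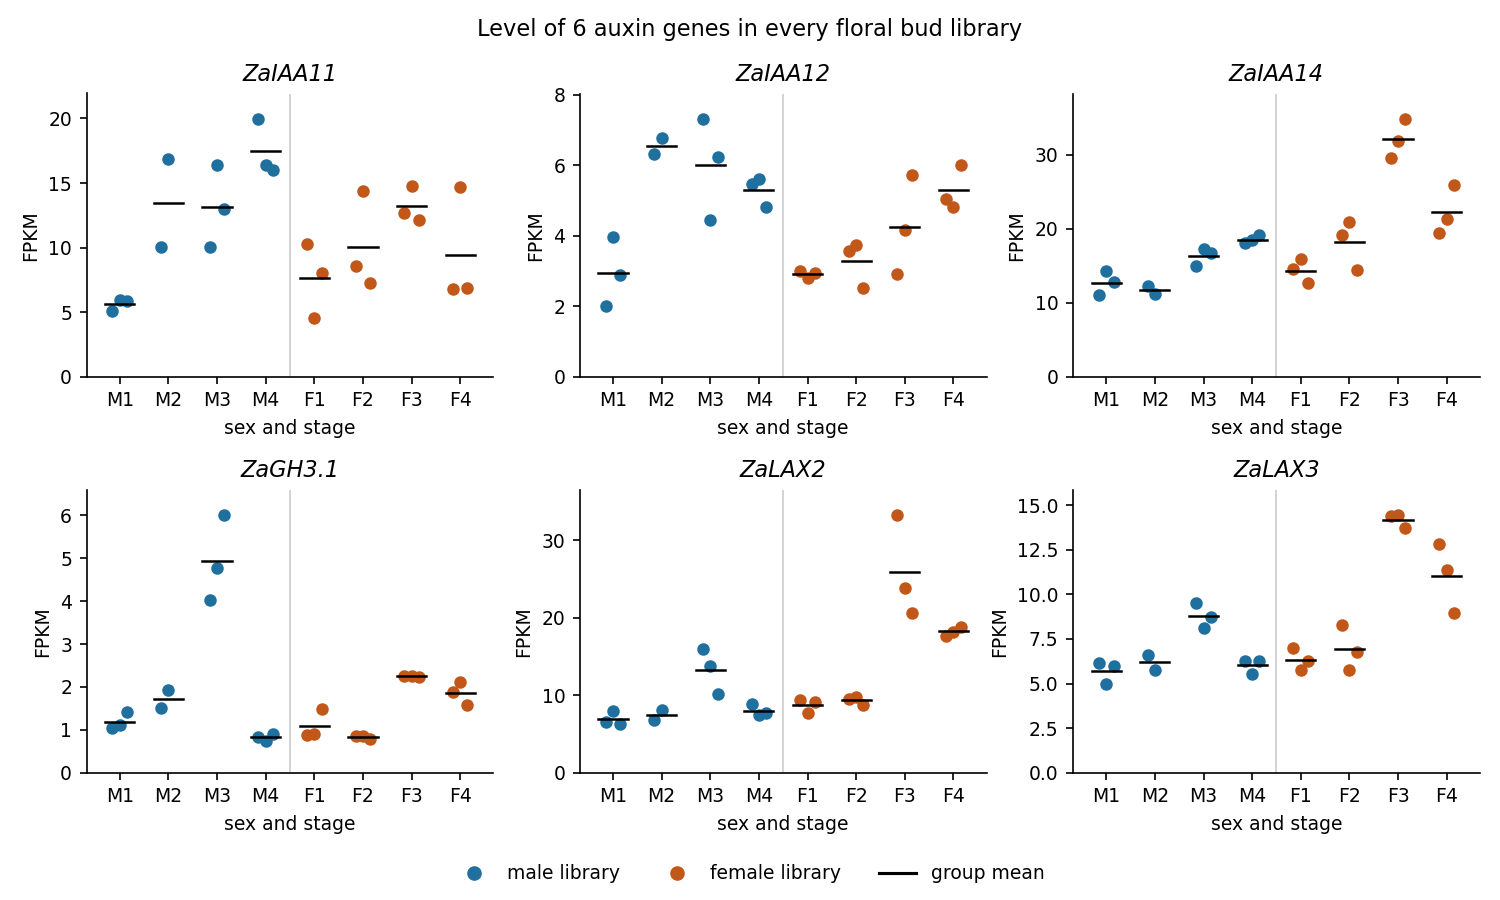
FPKM of the 6 genes in each of the 23 libraries, by group (male stages left, female stages right). Points are libraries and bars are group means. *ZaGH3.1* stands at 4.02 to 6.001 FPKM in M3 and at 2.23 to 2.27 FPKM in F3, and *ZaLAX2*, *ZaLAX3* and *ZaIAA14* have their highest libraries in F3.

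A gene was called where limma gave a log2 fold change of 1 or more in size on the log2(FPKM + 1) scale, together with an adjusted p (Benjamini-Hochberg, over all genes tested) of 0.05 or less. Ratios given as fold are of group means in FPKM. In M3*vs.*M1, 2 of the 6 genes rose (*ZaIAA11* and *ZaGH3.1*) and 0 fell, where 2.77% of all genes tested were called higher. In F3*vs.*F1, 3 rose (*ZaIAA14*, *ZaLAX2* and *ZaLAX3*) and 0 fell, beside 3.04% of all genes. *ZaGH3.1* was 2.07-fold there (log2 fold change 0.65, standard error 0.14, limma adjusted p = 8.08e-04), under the fold threshold. The median log2 fold change of the 6 genes was 0.83 in M3*vs.*M1 and 0.91 in F3*vs.*F1, against 0.00 over all genes in both. The paper names *ZaIAA11*, *ZaIAA12* and *ZaGH3.1* with its hormone genes raised in M3*vs.*M1. It also drew hormone genes from those raised in F3*vs.*F1. A rise in these 2 comparisons was thus in part a condition of the choice and is no separate evidence. By adjusted p alone, without the fold threshold, all 6 were higher in M3*vs.*M1 (20% of all genes) and 5 of 6 in F3*vs.*F1 (21.1% of all genes). No gene of the 6 was called in limma's sex by stage test for this step, which compares the male with the female change from stage 1 to stage 3 and called 2.98% of all genes. At an unadjusted p of 0.05 or less, at any fold, 4 of 6 passed, beside 29.7% of all genes. Limma's voom fit of fragments recovered from the FPKM steps, added after seeing the data, called 0, beside 4.12% of all genes. That fit called 3 of the 6 higher in M3*vs.*M1 (*ZaIAA11*, *ZaIAA12* and *ZaGH3.1*) and 4 in F3*vs.*F1 (*ZaIAA14*, *ZaGH3.1*, *ZaLAX2* and *ZaLAX3*), beside 4.99% and 5.1% of all genes, so that *ZaGH3.1* was then called in both sexes. The estimates on the log2(FPKM + 1) scale were 0.77 for *ZaGH3.1* (limma adjusted p = 0.0106) and -0.77 for *ZaIAA14* (limma adjusted p = 0.00516), both under the fold threshold. A difference between the sexes in this step was thus not called for any of the 6.

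The M3 and F3 libraries were the shallowest, at 0.903 to 0.945 and 0.853 to 0.942 of the depth of M1 replicate 1, against 0.947 to 1.09 at the other stages. The share of all FPKM in the top 10 genes was 7.93 to 8.60% in F3, against 3.57 to 6.12% in the other groups, and the summed stamen and ovule identity genes moved with stage as given above. Per the paper, RNA integrity was lower in every F3 and F4 library than in any library of the other groups. The share of reads mapped was lowest in F3. The part of these in the results was not tested. All 12 calls of these genes kept their side of the thresholds under quantile normalization and under median ratio scaling.

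The first repressor, *ZaIAA11*, had its lowest group mean in M1 and its highest in M4. In male buds it was at 5.08, 5.95 and 5.85 FPKM in M1, 10.01 and 16.9 in M2, 10.04, 16.4 and 12.98 in M3, and 19.9, 16.4 and 16.02 in M4. All libraries of M2, M3 and M4 lay above all libraries of M1, and the later groups overlapped each other. In female buds it was at 10.3, 4.56 and 8.01 FPKM in F1, 8.60, 14.4 and 7.23 in F2, 12.7, 14.7 and 12.1 in F3, and 6.77, 14.7 and 6.91 in F4. The female groups overlapped except that F3 lay above F1, and a single library of F4 lay in the range of F3. *ZaIAA11* rose in M2*vs.*M1 (log2 fold change 1.09, standard error 0.32, limma adjusted p = 0.0134) beside 2.04% of all genes. The rise was 2.33-fold in M3*vs.*M1 (log2 fold change 1.07, standard error 0.28, limma adjusted p = 0.00494) and 3.1-fold in M4*vs.*M1 (log2 fold change 1.47, standard error 0.28, limma adjusted p = 1.95e-04), where 6.89% of all genes were called higher. Without M2 replicate 2, the M2*vs.*M1 value was 0.74 (limma adjusted p = 0.210) and no longer called, and without M3 replicate 2 the M3*vs.*M1 value was 0.91.

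Between the sexes, *ZaIAA11* was called at no stage. The M4 libraries were all above the F4 libraries, with 17.4 ± 2.17 FPKM in M4 and 9.47 ± 4.55 FPKM in F4 (SD, n = 3 each), a log2 fold change of 0.89 (standard error 0.28, limma adjusted p = 0.0152), under the fold threshold. This rests on F4 replicate 2, and without it the value was 1.23 and passed both thresholds. At stage 3 the estimate was -0.03 with a 95% interval of -0.62 to 0.57, so that differences within these limits remain possible.

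Zardc22092(*ZaIAA12*), named after the *Arabidopsis* repressor of MONOPTEROS, was the weakest of the repressors and was called in no comparison by limma on log2(FPKM + 1). In the voom fit it was called in M2*vs.*M1 (1.19), M3*vs.*M1 (1.04) and M2*vs.*F2, and with pseudocounts of 0.1 and 0.5 the M2*vs.*M1 value was 1.17 and 1.07 and called, as was the M3*vs.*M1 value with 0.1 (1.02). In male buds it was at 2.01, 3.95 and 2.88 FPKM in M1, 6.30 and 6.76 in M2, 7.30, 4.44 and 6.24 in M3, and 5.48, 5.60 and 4.82 in M4. M1 lay below all later male libraries, M2 lay above M4, and M3 spanned both. In female buds it was at 2.996, 2.81 and 2.95 FPKM in F1, 3.58, 3.73 and 2.53 in F2, 2.91, 4.15 and 5.71 in F3, and 5.03, 4.81 and 6.01 in F4. F1 and F2 lay low, F4 lay above both, and F3 spanned the gap between them. In M2*vs.*M1 the level was 2.22-fold, with log2 fold change 0.96, standard error 0.22, limma adjusted p = 0.00218, just under the fold threshold. Against F2, the M2 libraries held 1.99 times the level (log2 fold change 0.83, standard error 0.22, limma adjusted p = 0.00969). At stage 4 the sexes had nearly the same mean, 5.30 ± 0.421 FPKM in M4 and 5.28 ± 0.642 FPKM in F4, with a 95% interval of the log2 fold change of -0.40 to 0.42. Without M1 replicate 2, the highest M1 library, the M2*vs.*M1 and M3*vs.*M1 values were 1.14 and 1.01 and both were called. The estimate of the sex by stage test from stage 1 to stage 2 was 0.85 (limma adjusted p = 0.0589), and 1.02 and called without that library.

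The repressor with the highest level was *ZaIAA14*, at a median of 17.3 FPKM over the 23 libraries against 10.3 for *ZaIAA11* and 4.44 for *ZaIAA12*. In male buds it was at 11.1, 14.3 and 12.8 FPKM in M1, 12.3 and 11.1 in M2, 14.96, 17.3 and 16.8 in M3, and 18.1, 18.4 and 19.1 in M4. The male range was narrow, with M3 and M4 above M1 and M2. In female buds it was at 14.6, 15.9 and 12.6 FPKM in F1, 19.2, 20.9 and 14.5 in F2, 29.6, 31.9 and 34.8 in F3, and 19.4, 21.4 and 25.9 in F4. F3 stood above every other library, and F4 came next, overlapped only by 1 library of F2. *ZaIAA14* rose 2.23-fold in F3*vs.*F1 (log2 fold change 1.11, standard error 0.12, limma adjusted p = 5.07e-07). In M3*vs.*M1 the ratio was 1.28 (log2 fold change 0.34, standard error 0.12, limma adjusted p = 0.0341), under the fold threshold. Between the sexes it was lower in all M3 libraries, 16.3 ± 1.22 FPKM in M3 and 32.1 ± 2.60 FPKM in F3 (SD, n = 3 each), at -0.93 on the log2 scale (standard error 0.12, limma adjusted p = 6.83e-06), which also missed the fold threshold. The step to the last stage differed in sign, 0.17 in M4*vs.*M3 and -0.52 in F4*vs.*F3. The sex by stage test of this step gave 0.69 (standard error 0.18, limma adjusted p = 0.00715), under the fold threshold and with no call.

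*ZaGH3.1*, the auxin-conjugating enzyme, had the lowest level of the 6 genes and the widest range of group means, 5.96-fold between M3 and M4. In male buds it was at 1.05, 1.12 and 1.41 FPKM in M1, 1.51 and 1.93 in M2, 4.02, 4.77 and 6.001 in M3, and 0.837, 0.748 and 0.899 in M4. M3 stood above every other library of either sex, and M4, the next stage, below every other male library. In female buds it was at 0.885, 0.907 and 1.48 FPKM in F1, 0.847, 0.851 and 0.791 in F2, 2.27, 2.27 and 2.23 in F3, and 1.89, 2.11 and 1.58 in F4. F3 and F4 lay above F1 and F2, and F4 was at 0.825 of the F3 mean, against 0.168 for M4 over M3. In F3*vs.*F2 it was 2.71-fold (log2 fold change 0.83, standard error 0.14, limma adjusted p = 6.59e-05), under the fold threshold, and 1.42 and called in the voom fit. *ZaGH3.1* rose in M3*vs.*M2 (log2 fold change 1.12, standard error 0.16, limma adjusted p = 3.06e-05) beside 1.25% of all genes, and 4.13-fold in M3*vs.*M1 (log2 fold change 1.42, standard error 0.14, limma adjusted p = 7.99e-08). It then fell in M4*vs.*M3 (log2 fold change -1.69, standard error 0.14, limma adjusted p = 5.30e-09), where 3.22% of all genes were called lower, while the F4*vs.*F3 value was -0.19 (standard error 0.14, limma adjusted p = 0.302). The sex by stage test of this last step was called, at -1.49 (standard error 0.20, limma adjusted p = 1.11e-05), where 2.88% of all genes were called lower, and it was the only call of the 6 genes in the 4 such tests. Without M3 replicate 3 the M3*vs.*M2 value was 0.99, just under the fold threshold.

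The order of the sexes in *ZaGH3.1* turned between the third and the last stage. It was at 4.93 ± 1.002 FPKM in M3 and 2.25 ± 0.0231 FPKM in F3, and at 0.828 ± 0.0759 FPKM in M4 and 1.86 ± 0.265 FPKM in F4 (SD, n = 3 each), without overlap at either stage. The log2 fold changes were 0.85 (standard error 0.14, limma adjusted p = 6.95e-05) and -0.64 (standard error 0.14, limma adjusted p = 9.07e-04), and neither passed the fold threshold. At this level the added 1 FPKM shrinks a fold change. In the voom fit, which does not add it, the values were 1.11 (limma adjusted p = 1.93e-05) and -1.15 (limma adjusted p = 0.00100) and both were called, as were 6.66% of all genes higher in M3*vs.*F3 and 6.09% lower in M4*vs.*F4. The ID Zardc21658, which the text of the study prints beside this name, is listed at 0 in all 23 libraries.

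The influx carrier *ZaLAX2* was highest in F3. In male buds it was at 6.54, 7.99 and 6.35 FPKM in M1, 6.83 and 8.10 in M2, 15.9, 13.7 and 10.2 in M3, and 8.82, 7.45 and 7.68 in M4. M3 lay above all other male libraries, which overlapped each other. In female buds it was at 9.32, 7.76 and 9.18 FPKM in F1, 9.51, 9.84 and 8.75 in F2, 33.2, 23.9 and 20.7 in F3, and 17.7, 18.2 and 18.8 in F4. F3 lay above F4, and F4 above F1 and F2 and above every male library. *ZaLAX2* rose in F3*vs.*F2 (log2 fold change 1.35, standard error 0.15, limma adjusted p = 3.88e-07), a step in which 4.18% of all genes were called higher, and 2.96-fold in F3*vs.*F1 (log2 fold change 1.44, standard error 0.15, limma adjusted p = 1.91e-07). In M3*vs.*M1 it was 1.91-fold (log2 fold change 0.83, standard error 0.15, limma adjusted p = 1.61e-04), under the fold threshold, and the sex by stage estimate for this step was -0.61 (limma adjusted p = 0.0532). On the log2(FPKM + 1) scale *ZaLAX2* was the only gene of the 6 called by limma between the sexes at any stage, where the voom fit also called *ZaGH3.1* and *ZaIAA12*. It was lower in M4*vs.*F4 (log2 fold change -1.10, standard error 0.15, limma adjusted p = 6.46e-06), with 7.98 ± 0.731 FPKM in M4 and 18.2 ± 0.569 FPKM in F4 (SD, n = 3 each), where 3.47% of all genes were called lower. In M3*vs.*F3 the value was -0.91 (limma adjusted p = 7.64e-05), and it passed the fold threshold without M3 replicate 1 (-1.04) or without F3 replicate 3 (-1.05).

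The second carrier, *ZaLAX3*, had the same order of its top 5 groups, F3, F4, M3, F2 and F1, at a lower level. In male buds it was at 6.13, 4.96 and 5.96 FPKM in M1, 6.59 and 5.78 in M2, 9.51, 8.14 and 8.72 in M3, and 6.28, 5.55 and 6.27 in M4. M3 again lay above all other male libraries. In female buds it was at 6.996, 5.79 and 6.24 FPKM in F1, 8.26, 5.77 and 6.78 in F2, 14.4, 14.4 and 13.7 in F3, and 12.8, 11.3 and 8.98 in F4. F3 stood above every other library, and 1 library of F4 lay within the range of M3. *ZaLAX3* rose 2.23-fold in F3*vs.*F1 (log2 fold change 1.05, standard error 0.12, limma adjusted p = 1.12e-06), a value of 0.99 and not called without F1 replicate 2. In M3*vs.*M1 it was 1.55-fold (log2 fold change 0.55, standard error 0.12, limma adjusted p = 0.00134). Between the sexes it was lower in all M3 than in all F3 libraries, at -0.63 on the log2 scale (standard error 0.12, limma adjusted p = 4.55e-04). It was also lower in males at the last stage, 6.04 ± 0.419 FPKM in M4 and 11.1 ± 1.94 FPKM in F4 (SD, n = 3 each), at -0.76 on the log2 scale (standard error 0.12, limma adjusted p = 5.26e-05). Both values were under the fold threshold.

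**Figure D2:**
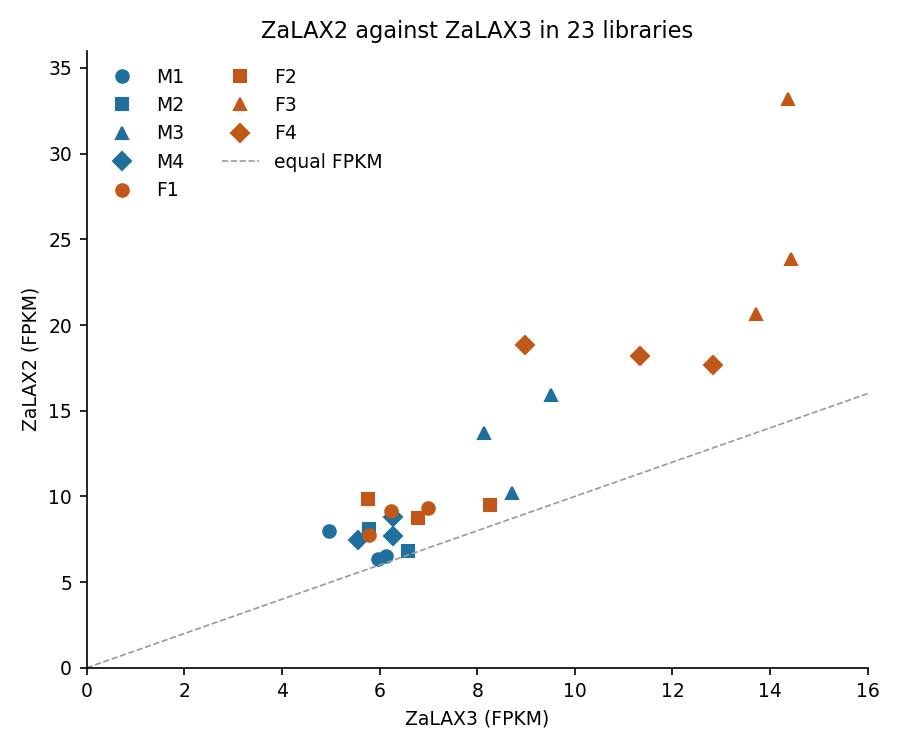
*ZaLAX2* against *ZaLAX3* in FPKM, 1 point per library, with colour for sex (male blue, female orange) and shape for stage; the dashed line marks equal levels. All 23 libraries lie above the line, and the F3 and F4 libraries reach the highest levels of *ZaLAX2*.

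The 2 carriers have consecutive IDs. Their ratio, *ZaLAX2* over *ZaLAX3*, was 1.04 to 2.31 over the 23 libraries, 1.51 ± 0.30 in M3, 1.32 ± 0.09 in M4, 1.82 ± 0.43 in F3 and 1.69 ± 0.37 in F4 (SD, n = 3 each). The M3 range overlapped that of F3, while M4, at 1.23 to 1.40, lay below F3, at 1.51 to 2.31, and overlapped F4. Pearson's r between them was 0.92 on the log2(FPKM + 1) scale over the 23 libraries, which share the stage and sex groups. Whether reads could be assigned to either gene was not tested, and their positions in the genome were not used here. Outside this pair, r was 0.81 between *ZaIAA14* and *ZaLAX2*, 0.75 between *ZaIAA14* and *ZaLAX3*, and at most 0.53 between any other of the 6 genes.

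**Figure D3:**
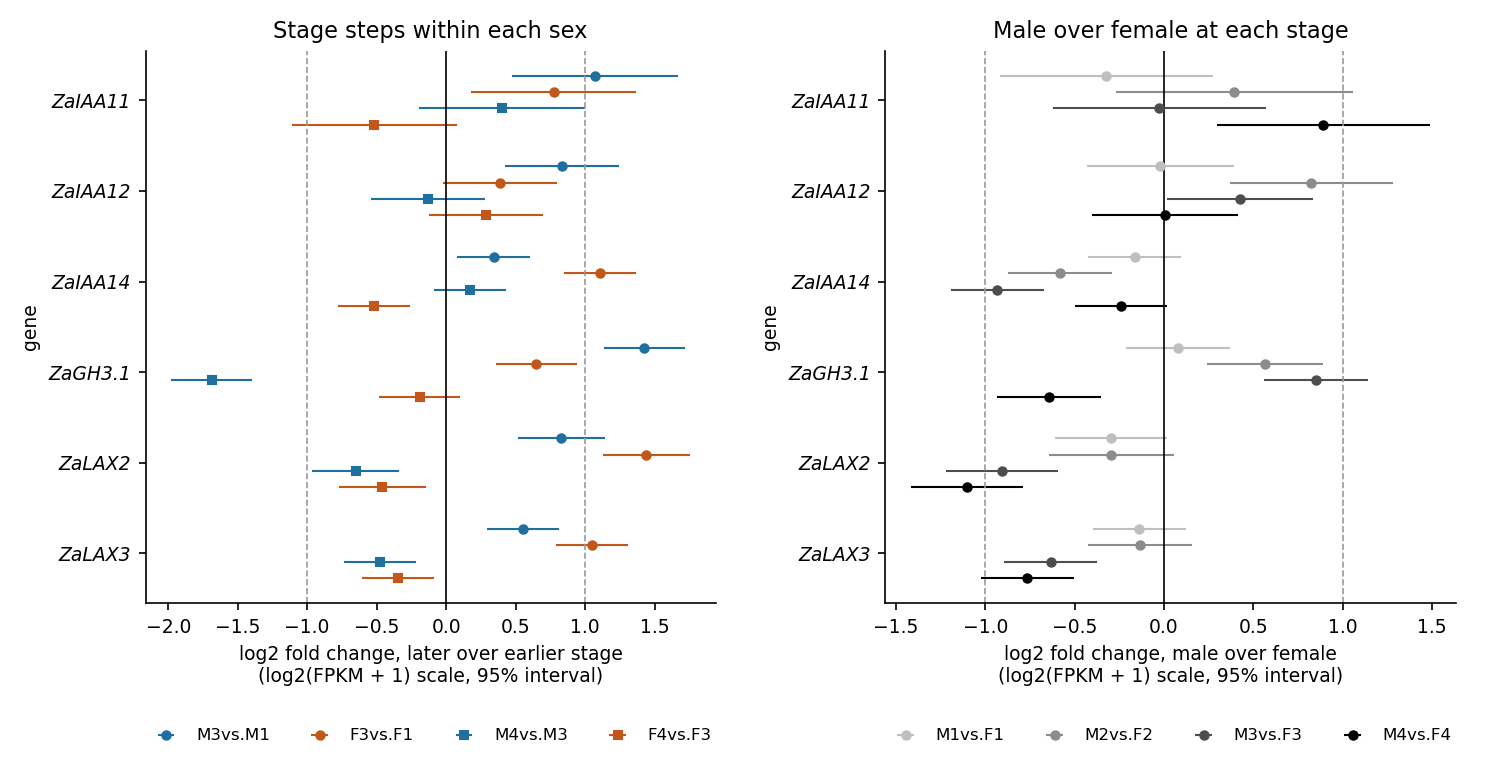
Log2 fold changes of the 6 genes on the log2(FPKM + 1) scale with 95% intervals; left, later over earlier stage in male (blue) and female (orange) buds, with circles for stage 3 over 1 and squares for stage 4 over 3; right, male over female at each stage. Dashed lines mark the fold threshold of 1. *ZaGH3.1* has the largest fall, -1.69 in M4*vs.*M3, and *ZaLAX2* lies furthest to the female side, -1.10 in M4*vs.*F4.

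Over the mean of the 4 stages no gene of the 6 was called between the sexes by limma on log2(FPKM + 1), beside 2.86% of all genes. The estimates lay on both sides of 0, with -0.48 for *ZaIAA14*, -0.65 for *ZaLAX2* and -0.42 for *ZaLAX3*, and 0.31 for *ZaIAA12* and 0.21 for *ZaGH3.1*. Each of these had a limma adjusted p of 0.0173 or less. By adjusted p alone, 2 were thus higher in males and 3 lower, beside 26.8% and 25.5% of all genes. The mean of *ZaGH3.1* joins stages of opposite sign, 0.85 in M3*vs.*F3 and -0.64 in M4*vs.*F4. In the voom fit its limma adjusted p was 0.0627. For *ZaIAA11* the estimate was 0.24 (limma adjusted p = 0.189). At stages 1, 2 and 3 no gene of the 6 was called between the sexes on that scale, beside 3.93% of all genes in M1*vs.*F1, 4.83% in M2*vs.*F2 and 6.01% in M3*vs.*F3. At an unadjusted limma p of 0.05 or less, at any fold, the counts were 0, 3 and 5 of 6, beside 41.5%, 33% and 47.8% of all genes. The voom fit called 0, 2 (*ZaIAA12* and *ZaGH3.1*) and 1 (*ZaGH3.1*), beside 7.79%, 7.79% and 11.1% of all genes.

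In females, none of the 6 was called in F2*vs.*F1, F4*vs.*F3 or F4*vs.*F1 by limma on log2(FPKM + 1), beside 4.21%, 7.66% and 11% of all genes. At an unadjusted p of 0.05 or less, at any fold, the counts were 1, 3 and 5 of 6, beside 39.1%, 47.8% and 56.4% of all genes. The voom fit called 0, 0 and 1 (*ZaLAX2* at 1.06, against 0.98 on the log2(FPKM + 1) scale), beside 7.31%, 12.1% and 17.4% of all genes. The sex by stage tests from stage 1 to 2 and from stage 2 to 3 likewise gave 0 calls of 6, beside 3.18% and 5.08% of all genes, with 3 and 2 at an unadjusted p of 0.05 or less, beside 27.9% and 32.5%, and 0 in the voom fit, beside 4.09% and 6.7% of all genes.

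The group means gave a different order for each gene, and most neighbours in that order overlapped. For *ZaIAA11* and *ZaIAA12*, libraries of every 2 neighbouring groups overlapped. In *ZaIAA14* the order F3, F4, M4 was without overlap and M4 then overlapped F2. For *ZaGH3.1*, M3 stood apart from F3 and F3 from F4, while F4 overlapped M2. Further down that order M2 stood apart from M1, and F1 from F2. In *ZaLAX2* the first 3 groups, F3, F4 and M3, were each apart from the next, and in *ZaLAX3* F3 alone stood apart from its neighbour. All other neighbours in the 6 orders overlapped.

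Depth sets how firmly these levels can be read. In each gene the FPKM times the relative depth was a whole multiple of a single step, within 0.01, for 38663 of the genes tested (99.8%), and this gives the number of fragments behind each value. *ZaGH3.1* rested on 19 to 139 fragments per library and *ZaIAA12* on 21 to 71, against 55 to 238 for *ZaIAA11*, 109 to 304 for *ZaIAA14*, 66 to 286 for *ZaLAX2* and 43 to 122 for *ZaLAX3*. The lowest value, 0.748 FPKM of *ZaGH3.1* in M4 replicate 2, rested on 19 fragments, with an exact 95% Poisson interval of 0.450 to 1.17 FPKM. The M3 libraries of the same gene began at 4.02 FPKM, with an interval of 3.23 to 4.94 FPKM. Such intervals cover counting error only.

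*ZaIAA11* varied between libraries of a group far beyond its counting error. The variance of fragments within groups was 10.6 times that of counting alone. This ratio lay above 96.5% of the 20057 genes with a mean of 20 to 300 fragments, whose median was 1.99. *ZaLAX3*, at 0.97, varied no more than counting allows, and *ZaGH3.1* (1.31), *ZaIAA12* (1.81), *ZaIAA14* (2.39) and *ZaLAX2* (3.20) lay between. In F4 the counting interval of *ZaIAA11* was 12.6 to 17.1 FPKM for replicate 2, apart from 5.39 to 8.41 FPKM for replicate 1.

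**Figure D4:**
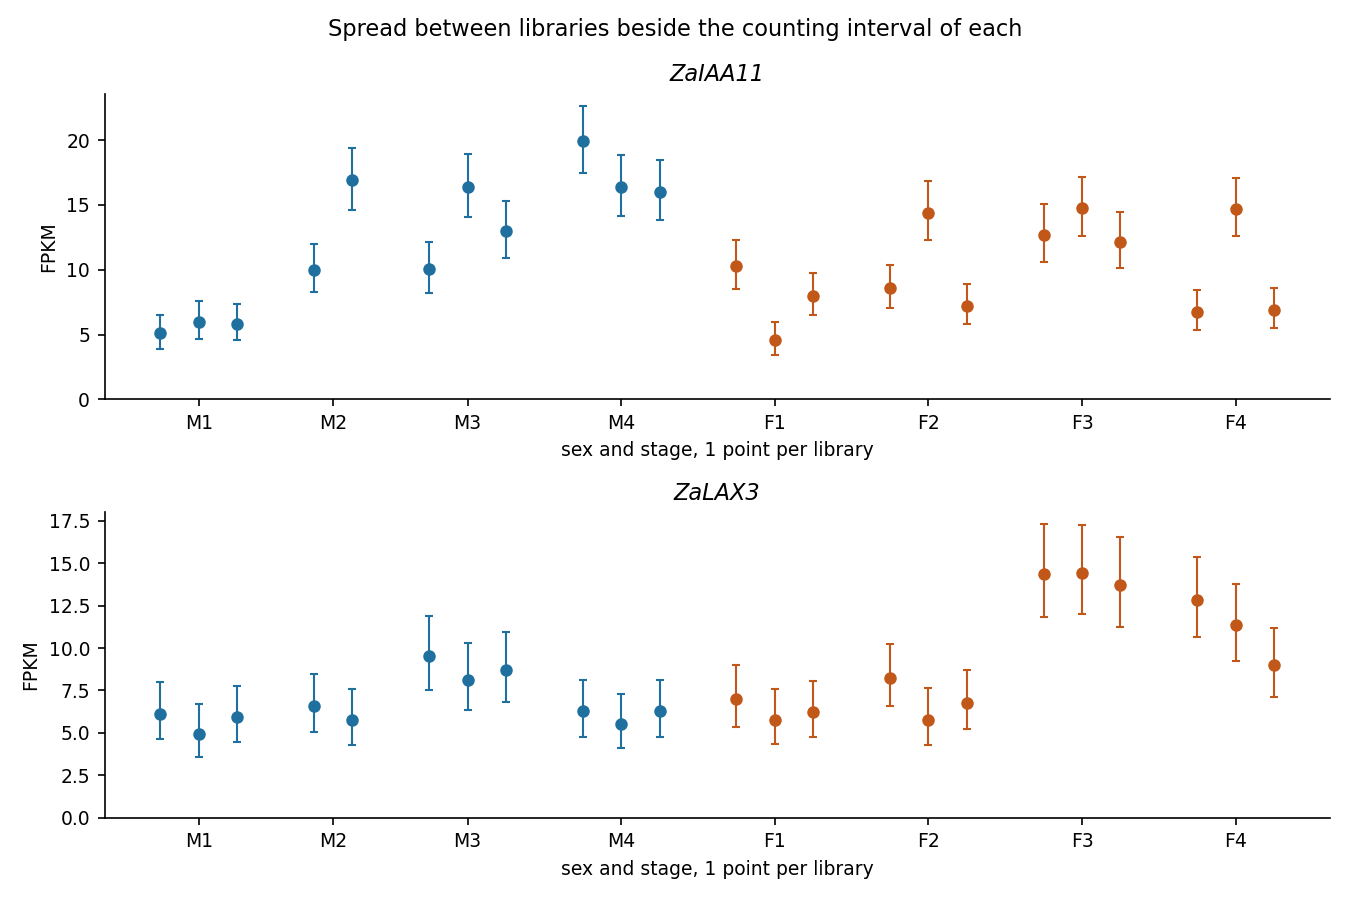
FPKM of *ZaIAA11* (top) and *ZaLAX3* (bottom), 1 point per library, by group (male blue, left; female orange, right), with exact 95% Poisson intervals from the recovered fragments. Intervals of *ZaIAA11* libraries of the same group lie apart in M2, M3, F1, F2 and F4, while those of *ZaLAX3* overlap within every group.

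Of the 12 other auxin genes that the study names (Aux/IAA, response factor, GH3 and SAUR genes), all were tested, and like the 6 they were chosen by the study on these libraries. In M3*vs.*M1, 1 rose and 0 fell, where 2.77% of all genes were called higher. In F3*vs.*F1, 2 rose and 1 fell, beside 3.04% higher and 3.48% lower of all genes. Between the sexes 1 was lower in M3*vs.*F3 and 0 higher, beside 2.35% of all genes lower. In M4*vs.*F4, 2 were higher and 1 lower, beside 4.64% higher and 3.47% lower of all genes. *ZaSAUR72* (Zardc35827), of a family of small auxin-induced proteins, rose in both sexes, with 30.6 ± 3.84 FPKM in M3 and 7.09 ± 1.66 FPKM in M1 (log2 fold change 1.98, standard error 0.13, limma adjusted p = 1.74e-10), and 59.8 ± 3.86 FPKM in F3 and 19.3 ± 2.67 FPKM in F1 (log2 fold change 1.59, standard error 0.13, limma adjusted p = 5.05e-09). *ZaSAUR32*, listed under an ID that the authors added, was higher in F3*vs.*F1 at 13.3 ± 0.167 FPKM in F3 and 4.71 ± 0.169 FPKM in F1 (log2 fold change 1.33, standard error 0.12, limma adjusted p = 1.64e-08), and lower in M4*vs.*F4 (log2 fold change -1.14, standard error 0.12, limma adjusted p = 1.52e-07). Its level in M3*vs.*M1 was 2.19-fold (log2 fold change 0.94, standard error 0.12, limma adjusted p = 1.76e-06), just under the fold threshold. *ZaSAUR53*, also under an added ID, was lower in M3*vs.*F3, at 0.630 ± 0.368 FPKM in M3 and 2.77 ± 0.846 FPKM in F3 (log2 fold change -1.21, standard error 0.29, limma adjusted p = 0.00248).

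A further GH3 gene, *ZaGH3.6* (Zardc52799), was called in females and between the sexes. It fell in F3*vs.*F1, with 5.24 ± 2.10 FPKM in F3 and 18.9 ± 3.32 FPKM in F1 (log2 fold change -1.72, standard error 0.25, limma adjusted p = 1.68e-05), and was higher in M4*vs.*F4, with 11.4 ± 1.44 FPKM in M4 and 3.86 ± 1.14 FPKM in F4 (log2 fold change 1.37, standard error 0.25, limma adjusted p = 1.98e-04). In M3*vs.*M1 *ZaGH3.6* was 0.483-fold (log2 fold change -0.97, standard error 0.25, limma adjusted p = 0.00440), just under the fold threshold. The sex by stage test for this step did not call it (limma adjusted p = 0.173). The response factor gene *ZaARF3* (Zardc26868), whose *Arabidopsis* counterpart ETTIN patterns the gynoecium, was also higher in M4*vs.*F4, at 30.2 ± 0.451 FPKM in M4 and 12.7 ± 0.577 FPKM in F4 (log2 fold change 1.18, standard error 0.06, limma adjusted p = 1.17e-11). Over the other comparisons the counts of the 12 were at most 4 higher (M4*vs.*M1, beside 6.89% of all genes). They were at most 3 lower (F4*vs.*F1, beside 5.41%, and the sex by stage test from stage 2 to stage 3, beside 3.05%). In the sex by stage test from stage 3 to stage 4, 3 of the 12 were called higher and 0 lower. There 2.56% of all genes were called higher and 2.88% lower, and *ZaGH3.1* was called lower.

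Likeness of pattern was measured by Pearson's r of log2(FPKM + 1) over the 23 libraries, which share sex, stage and depth. Most like *ZaLAX2* were Zardc48688 (r = 0.94) and Zardc55293 (r = 0.93), and most like *ZaLAX3* were Zardc21031 (0.94) and Zardc27661 (0.92). *ZaIAA14* was most like Zardc12294 and Zardc07827 (0.92 each), and *ZaGH3.1* most like Zardc03370 (0.92) and Zardc07909 (0.91). The values were lower for *ZaIAA12*, with Zardc13221 (0.86) and Zardc11577 (0.86), and for *ZaIAA11*, with Zardc35142 (0.84) and Zardc34752 (0.82). Among genes that the study names, the nearest was *ZaSEP2* (Zardc10299) for both *ZaIAA11* (0.71) and *ZaIAA12* (0.81), *ZaAIP1* for *ZaIAA14* (0.83) and *ZaPRB1* for *ZaGH3.1* (0.69), and the 2 carriers were nearest to each other.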

How the data were processed

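The FPKM values were deposited per library. Per the paper, the authors mapped reads to the *Z. armatum* genome, used HTSeq for gene counts and turned these into FPKM. The submitters' processing notes name Bowtie 0.12.2, HTSeq and the mouse build mm8, which were not resolved further, and positions were not used. The third M2 library was left out, which leaves 23 libraries. The p-values set a difference of group means against the spread between pooled libraries within groups, taken over all 8 groups. Variation between single trees is not measured. Whether the replicates of a group, or the stages, share trees is not given.

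The 38734 genes that reached 1 FPKM in 3 or more libraries were fitted on log2(FPKM + 1) with limma 3.58.1 in R 4.3.3, with all 8 groups in 1 fit, 15 residual and 4.15 prior degrees of freedom, and a trended prior. The test was tried on simulated data, but the outcome is not given here and no call rests on it. The pseudocount understates fold changes of weak genes. Relative depth and fragments came from the steps of FPKM (Python 3.11.15, numpy 2.4.6). Counting intervals are exact Poisson (scipy 1.17.1).

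The genes, lists and tests were chosen with earlier results of these data known. The genes named are the 6 genes with all values, those of the 12 other auxin genes called in M3*vs.*M1, F3*vs.*F1, M3*vs.*F3 or M4*vs.*F4, and the 2 most alike and the 1 most alike among study-named genes. Alternatives were pseudocounts of 0.1 and 0.5, no filter, quantile and median ratio scaling, p without adjustment, limma's treat at the fold threshold, fits of the compared groups alone, a block for the replicate number, and leaving out each library. A voom fit of recovered fragments and adjusted p alone were added after seeing the data. The DESeq2 test that the authors used on counts was not run. SDs are between pools.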

Additional observations from a re-analysis of the deposited data

Results flagged for a closer look

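The step from stage 3 to stage 4 of *ZaGH3.1* differed between the sexes by a test of the difference itself, at -1.49 on the log2(FPKM + 1) scale (limma adjusted p = 1.11e-05). It fell in M4*vs.*M3 (-1.69), while the F4*vs.*F3 value was -0.19, with a 95% interval of -0.48 to 0.10 (limma adjusted p = 0.302). Over the 23 fits that leave out a library and the other alternatives the value ran from -2.25 to -1.37, and the adjusted p reached 0.611 when limma tested against the fold threshold itself. The M3 and F3 libraries were the shallowest of the series, and per the paper RNA integrity was lower in F3 and F4 than in M3 and M4. The part of depth and of RNA integrity in this result was not tested.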

How the results depend on the processing

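Counts of calls over the comparisons of a family were 6 for male stages, 4 for female stages, 1 for male against female and 1 for the sex by stage tests. Tested against the fold threshold itself they were 1, 0, 0 and 0, where the 1 is *ZaGH3.1* in M4*vs.*M3. With a pseudocount of 0.1, female stages gave 8 and male against female 3, in the voom fit of recovered fragments 8 and 5, and by adjusted p alone the 4 families gave 18, 17, 16 and 4. Leaving out each library gave 5 to 8, 3 to 5, 1 to 2 and 1 to 2. Without M3 replicate 1, F3 replicate 3 or F4 replicate 2, male against female gave 2, and without M1 replicate 2 or F4 replicate 2 the sex by stage tests gave 2. The other alternatives kept the counts within 1.5 times.

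Of 114 values of a gene in a comparison, 12 changed sign in some setting, none of them called, and the largest of these was 0.26 in size. The replicate number as a block reversed 3, *ZaIAA11* in M3*vs.*M2 (0.0382) and the sex by stage test from stage 1 to stage 2 of *ZaLAX2* (-0.0534) and *ZaLAX3* (-0.0142), and changed no call. The deviations of same-numbered libraries correlated at -0.0782 to 0.0905 over 39 pairs, so that no strong shared deviation was seen. With so few libraries per group, this cannot show that same-numbered libraries are unrelated. Quantile normalization reversed *ZaIAA12* in M4*vs.*F4 (-0.0367) and the same 2 tests of *ZaLAX2* (-0.0298) and *ZaLAX3* (-0.0412). Median ratio scaling reversed that of *ZaLAX2* (-0.000607), and the voom fit that of *ZaLAX3* (-0.0111).

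Leaving out a library reversed some values: *ZaLAX2* M2*vs.*M1 (-0.0179 to 0.20), *ZaIAA11* M3*vs.*M2 (-0.36 to 0.34), *ZaIAA12* M3*vs.*M2 (-0.26 to 0.0426), *ZaIAA12* M4*vs.*M3 (-0.30 to 0.00161), *ZaLAX3* M4*vs.*M1 (-0.00373 to 0.13), *ZaLAX3* F2*vs.*F1 (-0.0126 to 0.21), *ZaIAA11* F4*vs.*F1 (-0.0764 to 0.48), *ZaIAA12* M1*vs.*F1 (-0.20 to 0.16), *ZaIAA11* M3*vs.*F3 (-0.19 to 0.14), *ZaIAA12* M4*vs.*F4 (-0.0489 to 0.0870), and the sex by stage tests from stage 1 to stage 2 of *ZaLAX2* (-0.11 to 0.11) and *ZaLAX3* (-0.11 to 0.12). The causes were not tested.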

Other observations

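By rank, some of the nearest genes changed. Spearman's rho over the 23 libraries put *ZaSAUR32* nearest to *ZaGH3.1* among study-named genes (0.81), *ZaCKX6* nearest to *ZaIAA11* (0.72) and *ZaSAUR72* nearest to *ZaLAX2* (0.84), while *ZaLAX2* remained nearest to *ZaLAX3* (0.83), *ZaSEP2* to *ZaIAA12* (0.77) and *ZaAIP1* to *ZaIAA14* (0.81). In females, *ZaGH3.1* held its 3 F3 libraries within 2.23 to 2.27 FPKM, on 48 to 53 fragments each, a range narrower than the counting interval of any of them.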
